A study of Mus musculus with 8 samples.

Results

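The miR-23, miR-27 and miR-24 clusters were represented by 5 array probes, mmu-miR-23a, mmu-miR-27a, mmu-miR-23b, mmu-miR-27b and mmu-miR-24, chosen by name from the 1135 miRNA probes of a one-colour mouse miRNA array. Liver RNA came from male C57BL/6N mice that were young adults when the diet began. All of the mice received a methionine- and choline-deficient (MCD) diet, which produces fatty liver with inflammation and fibrosis in animals that are not diabetic. The MCD + metformin group (4 arrays) also drank water with metformin, an oral biguanide, at 2.4 mg/day for 15 weeks, and the MCD group (4 arrays) did not. Each array carried the RNA of 1 liver. Mice fed normal chow are not analysed here.

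The 5 miRNAs are made from a pair of paralogous gene clusters. The a cluster holds the hairpins of miR-23a, miR-27a and miR-24-2, and the b cluster those of miR-23b, miR-27b and miR-24-1. A hairpin is cut into a guide strand, which directs repression of target mRNAs mainly through its seed, and a passenger strand, marked here with a star. Both miR-24 hairpins give the same mature miR-24. The clusters are well known from endothelial cells and vessel growth, and in liver cells miR-27 and miR-24 are known as repressors of lipid metabolism genes.

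The mature sequences show which members can be told apart, and they are printed 5′ to 3′ from RefSeq (GRCm38.p6), with the seed (bases 2 to 8) in capitals. In the miR-27 pair the single base that differs is in capitals too.
mmu-miR-23a: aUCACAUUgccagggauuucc
mmu-miR-27a: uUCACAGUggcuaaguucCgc
mmu-miR-27b: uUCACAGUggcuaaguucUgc
mmu-miR-24: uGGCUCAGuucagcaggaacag
A mature sequence was matched for 4 of the 5 members, which carry 3 distinct seeds. Counted from 1 at the 5′ end, mmu-miR-27a and mmu-miR-27b differ by C19U and share their first 18 of 21 bases, the seed included. The seeds of mmu-miR-23a and mmu-miR-27a differ by U7G, with the position again counted from the 5′ end of the miRNA. How far the probes of near-identical miRNAs take up each other's RNA was not tested.

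The a cluster spans chr8:84208518-84208921 on the plus strand, 404 bases, and overlaps no annotated gene other than its own miRNAs and mir-3074-2. The next gene is Zswim4. Its guide strands lie at chr8:84208563-84208583 for mmu-miR-23a, chr8:84208727-84208747 for mmu-miR-27a and chr8:84208875-84208896 for mmu-miR-24. The b cluster spans chr13:63300484-63301275 on the plus strand, 792 bases, and lies within the span of the protein-coding gene Aopep. Its copy of mmu-miR-24 is at chr13:63301251-63301272 and mmu-miR-27b is at chr13:63300760-63300780.

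The passenger strands of the miR-24 hairpins, unlike the guide, differ between the clusters and so name the hairpin they come from. They share their first 16 bases, and capitals mark the bases that lie between the shared start and the shared end.
mmu-miR-24-2*: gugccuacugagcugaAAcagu
mmu-miR-24-1*: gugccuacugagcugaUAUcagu

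Scanner signals were read on a linear scale, and each probe was set against blank spots and against the 24 negative control spots of its array. Between 848 and 1018 probes exceeded the blank spots (mean + 2 SD) on MCD + metformin arrays and 868 to 970 on MCD arrays. All 5 members were above the mean + 2 SD of the negative control spots in every liver, and 158 probes in all met this limit. The hepatocyte miRNA miR-122, the liver check, was among the 158, with a mean signal of 23617 in MCD + metformin livers and 18191 in MCD livers. The median local background was 137 to 144 on MCD + metformin arrays and 157 to 162 on MCD arrays. All MCD + metformin arrays lay in cell 2 of the slide image and all MCD arrays in cell 1, so an effect of treatment and one of array position cannot be told apart.

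With the main processing, no difference between the groups was detected for any member taken alone. In limma's test, 0 of the 5 members had an unadjusted p under 0.05, against 9.44% of the 1070 probes tested. After Benjamini-Hochberg adjustment 0 of 5 passed, against 0% of all probes, whose smallest adjusted p was 0.195. The groups overlapped for all 5, while 4.77% of the tested probes had groups that did not overlap. The members' median log2 fold change (MCD + metformin over MCD) was -0.06, beside 0.03 over all tested probes. In bulk liver RNA, fewer cells of a type and less RNA per cell cannot be told apart.

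In the a cluster, miR-23a is known to repress glutaminase mRNA in human cells. Its signal was 3796, 2413, 2138 and 2908 in MCD + metformin livers, against 3275, 3160, 3010 and 2367 in MCD livers. The highest and the lowest of the 8 values were both in MCD + metformin livers, and the groups overlapped. The mean signal was 2814 ± 728 in MCD + metformin livers and 2953 ± 405 in MCD livers (SD, n = 4 each). On the normalized scale the log2 fold change was -0.03 (SE 0.15, 95% interval -0.35 to 0.29, limma adjusted p = 0.976).

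The second a-cluster guide, mmu-miR-27a, belongs to a family that represses adipocyte differentiation. It had signals of 970, 650, 639 and 849 in MCD + metformin livers, against 1046, 802, 1086 and 735 in MCD livers. MCD livers 1 and 3 were above every MCD + metformin liver, and the other two lay within their range. Its mean signal was 777 ± 161 in MCD + metformin livers and 917 ± 175 in MCD livers (SD, n = 4 each), with a log2 fold change of -0.21 (SE 0.16, 95% interval -0.56 to 0.13, limma adjusted p = 0.698).

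The guide shared by both clusters, mmu-miR-24, had signals of 2058, 1303, 1097 and 1635 in MCD + metformin livers, against 2042, 1574, 2222 and 1386 in MCD livers. MCD liver 3 was the highest, and the other three MCD livers lay within the range of the MCD + metformin livers. The mean signal was 1523 ± 420 in MCD + metformin livers and 1806 ± 391 in MCD livers (SD, n = 4 each). Its log2 fold change was -0.21 (SE 0.17, 95% interval -0.58 to 0.16, limma adjusted p = 0.734). Under quantile normalization, mmu-miR-27a (-0.33) and mmu-miR-24 (-0.41) had an unadjusted p of 0.00966 and 0.00598 by limma, with a limma adjusted p of 0.305 for both. By limma, mmu-miR-27a also had an unadjusted p of 0.0450 with the local background subtracted (adjusted 0.433), and mmu-miR-24 one of 0.0487 without MCD + metformin liver 1 (adjusted 0.547).

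In the b cluster, miR-23b is known to repress Smad mRNAs of TGF-beta signalling in the fetal liver. The mmu-miR-23b signal was 3413, 2304, 1841 and 2859 in MCD + metformin livers, against 2547, 2770, 3845 and 2176 in MCD livers. MCD liver 3 was again the highest of the 8, and MCD + metformin liver 3 the lowest. Its mean was 2604 ± 681 in MCD + metformin livers and 2835 ± 717 in MCD livers (SD, n = 4 each), and the log2 fold change was -0.06 (SE 0.18, 95% interval -0.44 to 0.32, limma adjusted p = 0.968).

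The remaining guide, mmu-miR-27b, which carries the same seed as mmu-miR-27a, had signals of 989, 721, 637 and 858 in MCD + metformin livers, against 874, 697, 887 and 678 in MCD livers. Its highest and lowest values were both in MCD + metformin livers. The mean was 801 ± 155 in MCD + metformin livers and 784 ± 112 in MCD livers (SD, n = 4 each). Its log2 fold change of 0.10 (SE 0.14, 95% interval -0.20 to 0.41, limma adjusted p = 0.890) turned to -0.02 under quantile normalization. The intervals of all 5 members held 0, and they do not show that any member was the same in both groups.

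**Figure D1:**
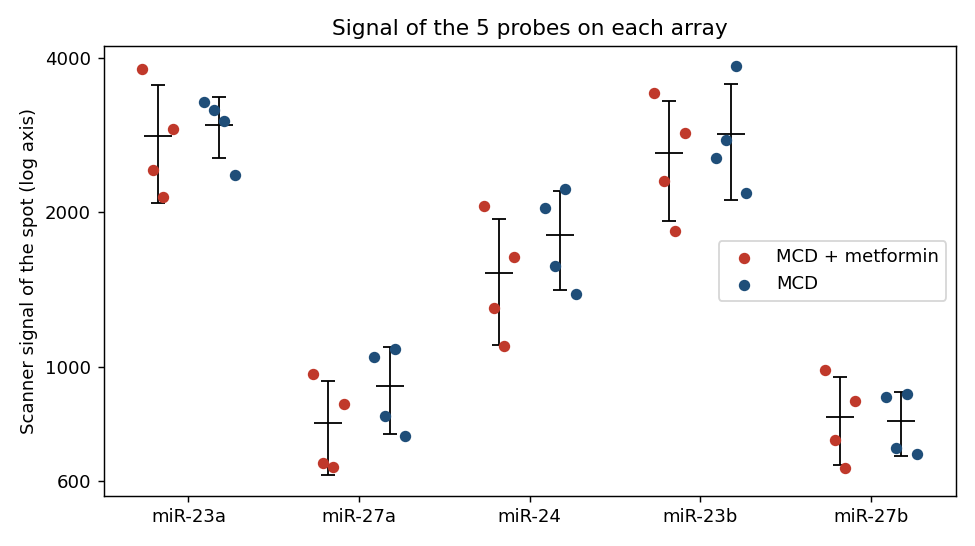
Scanner signal (log axis) of the 5 members in each liver, MCD + metformin livers left of MCD livers, with the mean and SD as bars. The points of the groups overlap for every member, as with mmu-miR-27b at 637 to 989 in MCD + metformin livers and 678 to 887 in MCD livers.

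**Figure D2:**
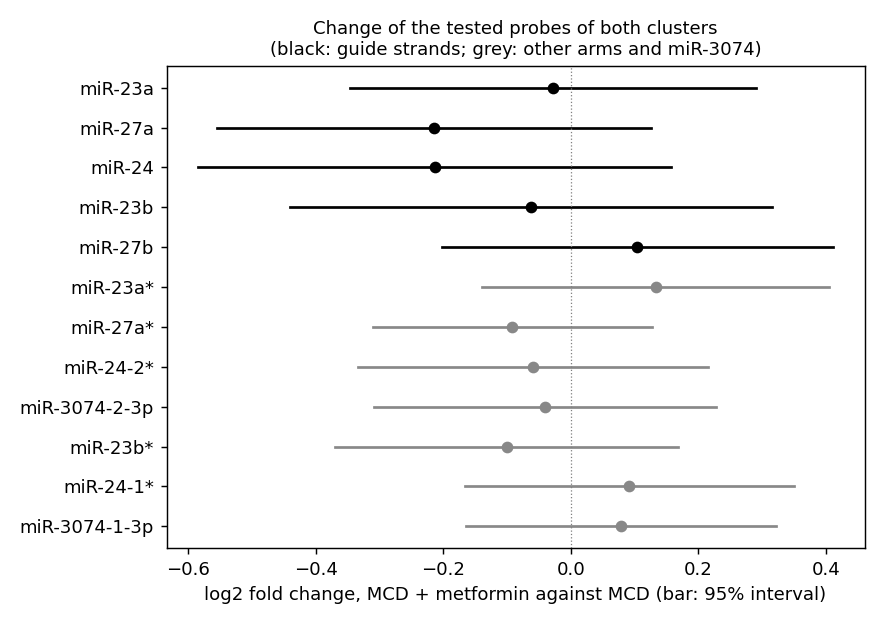
Log2 fold change (MCD + metformin over MCD) of the tested probes of the clusters, with 95% intervals as bars, guide strands in black and other strands in grey. The intervals of the 5 members include 0, from mmu-miR-27a at -0.21 to mmu-miR-27b at 0.10.

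The a and b clusters were then compared within each array, where the scaling of the array cancels. For the miR-27 pair the a form was lower relative to the b form in MCD + metformin livers. The normalized log2 value of mmu-miR-27a minus that of mmu-miR-27b was 0.01, -0.15, 0.07 and 0.03 in MCD + metformin livers, against 0.34, 0.29, 0.39 and 0.22 in MCD livers. Every MCD + metformin liver was below every MCD liver. The mean difference was -0.01 ± 0.10 in MCD + metformin livers and 0.31 ± 0.07 in MCD livers (SD, n = 4 each). The change was -0.32 on the log2 scale (SE 0.06, 95% interval -0.47 to -0.17), a ratio 0.802 times that in MCD livers. The two-sided exact permutation p was 0.0286, the smallest that 4 against 4 arrays can give, and 0.0571 after adjustment over the 2 differences planned.

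The same separation was present before any correction. The scanner signal of mmu-miR-27a divided by that of mmu-miR-27b was 0.981, 0.902, 1.003 and 0.990 in MCD + metformin livers, against 1.197, 1.15, 1.22 and 1.08 in MCD livers. The groups did not overlap under any of 6 other background corrections, normalizations or value tables. Local background at the mmu-miR-27a spot was 134 to 137 on MCD + metformin arrays and 153 to 159 on MCD arrays, and at the mmu-miR-27b spot 149 to 161 on MCD + metformin arrays and 173 to 183 on MCD arrays. With the local background subtracted the ratio was 0.9004 to 1.05 in MCD + metformin livers and 1.17 to 1.31 in MCD livers.

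For the miR-23 pair no such change was measured. The value of mmu-miR-23a minus that of mmu-miR-23b was 0.16, 0.08, 0.24 and 0.03 in MCD + metformin livers, against 0.39, 0.20, -0.37 and 0.14 in MCD livers. MCD liver 3 stood below all others and MCD liver 1 above them, and the groups overlapped. The change was 0.03 (SE 0.17, 95% interval -0.38 to 0.45, exact permutation p = 0.886), an interval that also holds the change of the miR-27 pair. Whether the changes of the miR-27 and miR-23 pairs differ was not tested.

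Among all 10 pairs of members, 2 had groups that did not overlap, beside 7.36% of the 12403 pairs among the 158 probes above negative controls. The other one was mmu-miR-24 against mmu-miR-27b, chosen after its values were seen. The difference was 1.21, 1.02, 1.0003 and 1.11 in MCD + metformin livers, against 1.40, 1.40, 1.52 and 1.28 in MCD livers. Its change was -0.32 (SE 0.07, 95% interval -0.48 to -0.15, exact permutation p = 0.0286), and without background correction the groups overlapped (p = 0.0571, exact permutation test). Adjusted over the 10 pairs, the exact permutation p of both was 0.143.

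By contrast, mmu-miR-27a and mmu-miR-24 kept nearly the same distance in both groups. The difference averaged -1.10 ± 0.12 in MCD + metformin livers and -1.09 ± 0.04 in MCD livers (SD, n = 4 each). The change was -0.0011 (95% interval -0.16 to 0.15, exact permutation p = 0.971). Both pairs that separated the groups therefore had mmu-miR-27b as a member, and they share its values.

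**Figure D3:**
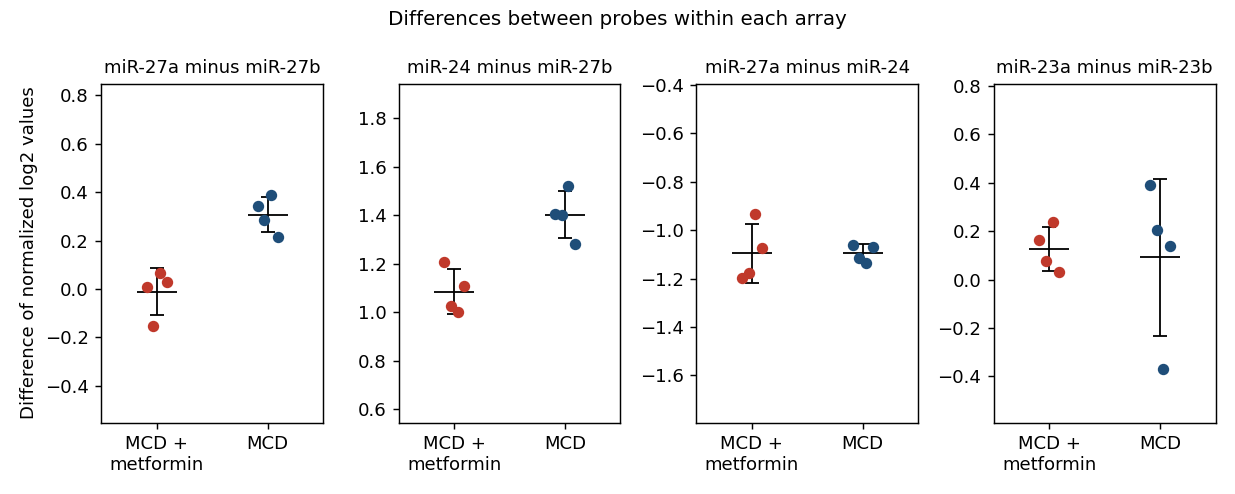
Within-array differences of normalized log2 values between members, MCD + metformin livers left of MCD livers, with the mean and SD as bars. For mmu-miR-27a minus mmu-miR-27b all MCD + metformin livers (-0.15 to 0.07) lie below all MCD livers (0.22 to 0.39), while for mmu-miR-23a minus mmu-miR-23b the groups overlap.

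How the members varied from liver to liver was compared over the 8 arrays. The closest pair was mmu-miR-27a with mmu-miR-24 (Pearson r = 0.97, exact permutation p = 0.000397, adjusted over 10 pairs 0.00397). Spearman's rho was 0.95 (exact permutation p = 0.00114, adjusted 0.0114), and r was 0.98 without the 2 arrays farthest from the median of mmu-miR-27a. The other 9 pairs had r between 0.71 and 0.84 (exact permutation p adjusted over 10 pairs, 0.0486 to 0.0508), and rho between 0.57 and 0.90 (exact permutation p adjusted over 10 pairs, 0.0228 to 0.151). By rho, only mmu-miR-23b with mmu-miR-24 among these 9 had an adjusted exact permutation p under 0.05. Without the 2 arrays farthest from the median of a single member of each pair, their r was 0.49 to 0.84. The arrays left out can thus differ between pairs. Groups of 4 are too small for a correlation within each.

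Around the group means, mmu-miR-27b followed its partners closely, with r = 0.96 against mmu-miR-27a and r = 0.99 against mmu-miR-24, compared with 0.76 and 0.82 when the groups were pooled. The points of the groups thus ran side by side, apart by the change given above. Each array was also shifted by the median of the 158 probes above negative controls, with the groups pooled. There r was 0.94 for mmu-miR-27a with mmu-miR-24 and 0.32 to 0.68 for the other pairs. No r was computed from values both shifted and centred on the group means.

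**Figure D4:**
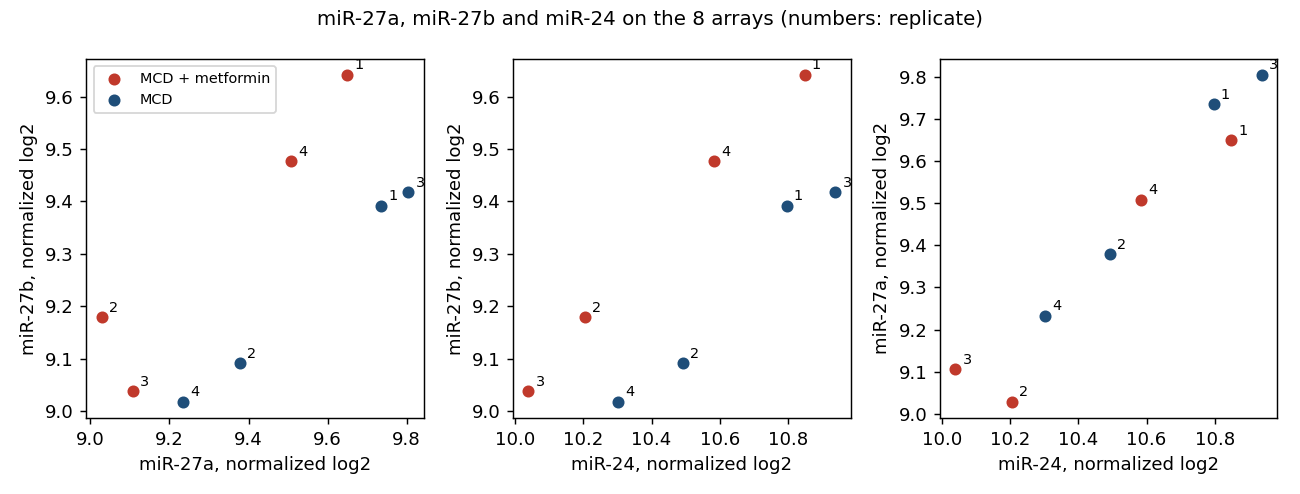
Normalized log2 values of the miR-27 and miR-24 probes against each other, 1 point per liver. The groups lie on separate lines where mmu-miR-27b is plotted, and on a common line for mmu-miR-27a with mmu-miR-24 (r = 0.97).

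The mean of the 5 members relative to its mean over the arrays was 0.32, -0.25, -0.35 and 0.11 in MCD + metformin livers, against 0.13, -0.0037, 0.28 and -0.25 in MCD livers. The median of the 158 probes deviated by 0.31, 0.01, -0.17 and 0.08 in MCD + metformin livers, against 0.01, -0.23, 0.18 and -0.19 in MCD livers. MCD + metformin liver 1 and MCD liver 3 were high by both measures, and MCD + metformin liver 3 and MCD liver 4 were low by both.

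**Figure D5:**
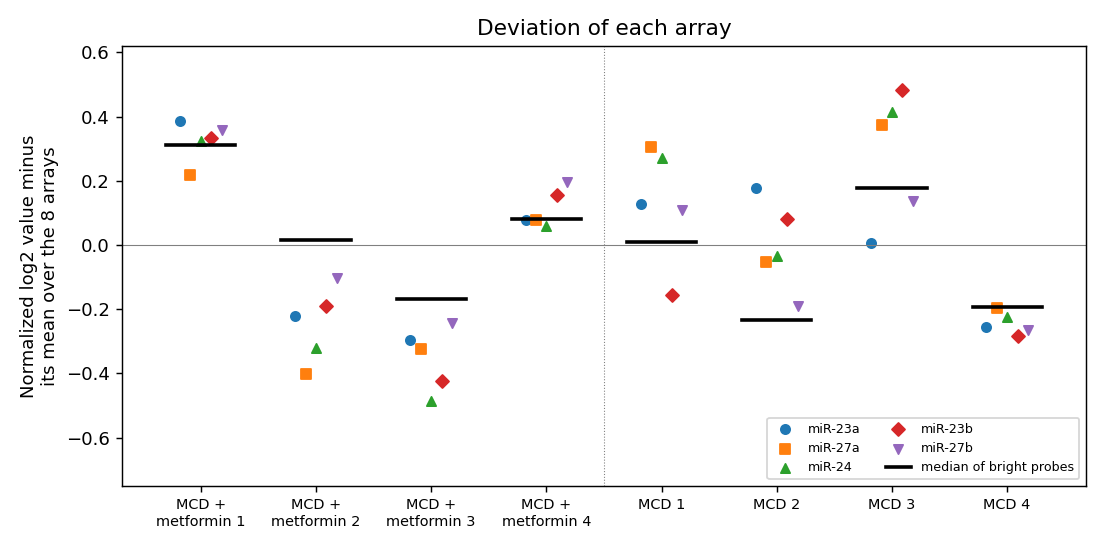
Deviation of each array from the mean over arrays (log2), with a marker for each of the 5 members. Bars give the median of the 158 probes above negative controls. In MCD + metformin liver 1 the bar is at 0.31, and the mean of the 5 members, which is not drawn, is 0.32.

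The probes most like each member were ranked by Pearson's r over the 8 arrays among the 157 others above negative controls, as a description. For mmu-miR-27a and for mmu-miR-24 the closest probe was the other of the pair. Outside the clusters, let-7i (r = 0.94), miR-200a (0.92) and miR-199b* (0.92) were nearest to mmu-miR-27a, and let-7i (0.96), miR-200a (0.94) and miR-143 (0.93) to mmu-miR-24. The nearest to mmu-miR-27b were miR-103 (0.96), miR-2861 (0.94) and miR-145 (0.93), and mmu-miR-27a was in place 32. For mmu-miR-23b they were miR-199a-5p (0.97), miR-191 (0.95) and miR-195 (0.93), and for mmu-miR-23a miR-31 (0.85), miR-30e* (0.84) and a murine herpesvirus probe (0.80). With the groups pooled, as in this ranking, the paralog was thus not the closest probe for any of the 4 paired members. Around the group means, where probes were not ranked, r was 0.96 for the miR-27 pair and 0.71 for the miR-23 pair.

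The clusters had 9 further probes, for passenger strands and for miR-3074, which is made from the strand opposite to miR-24. Of these, 7 were tested and 0 passed an unadjusted p of 0.05 from limma, against 9.44% of the 1070 probes tested. So few probes cannot show a difference from that share. Their median log2 fold change was -0.04. Only mmu-miR-24-2*, from the a cluster, was above the negative control limit in every liver. Its signal was 397, 363, 352 and 381 in MCD + metformin livers, against 416, 351, 478 and 375 in MCD livers. The groups overlapped, and the log2 fold change was -0.06 (SE 0.13, 95% interval -0.33 to 0.22, limma adjusted p = 0.965). The b-cluster strand mmu-miR-24-1* averaged 263 ± 17 in MCD + metformin livers and 261 ± 11 in MCD livers (SD, n = 4 each). The within-array difference of mmu-miR-24-2* and mmu-miR-27b changed by -0.16 (95% interval -0.51 to 0.19, exact permutation p = 0.343), with overlapping groups. That interval also holds the change of the miR-27 pair.

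Markers of liver cell types are given beside these values, with 68 probes higher and 33 lower among the 1070 tested (9.44% in all) as the background. That split was 43 higher and 50 lower under quantile normalization, and 24 higher and 60 lower without scaling. By limma's unadjusted p (under 0.05), 5 of 5 hepatocyte probes were higher, with summed signals of 29150 to 38992 in MCD + metformin livers and 24506 to 28023 in MCD livers. Both of 2 endothelial miR-126 probes were higher (sums of 4693 to 6191 in MCD + metformin livers and 4013 to 5277 in MCD livers). Of 6 stellate cell and fibroblast probes 2 were lower (5210 to 8151 in MCD + metformin livers, 6093 to 12545 in MCD livers). The largest part of these sums was miR-21, with mean signals of 2616 in MCD + metformin livers and 4504 in MCD livers. Log2 fold changes of the 6 ran from -0.70 (miR-199a-3p) to 0.07 (miR-145). Of 3 myeloid and leukocyte probes 1 was lower (927 to 1198 in MCD + metformin livers, 1091 to 1666 in MCD livers). Of 3 red blood cell probes 0 passed (1562 to 2579 in MCD + metformin livers, 1302 to 2412 in MCD livers). Some markers were dim: miR-144 was above negative controls on 0 of the 8 arrays, miR-486 on 1, miR-142-3p on 4 and miR-214 on 5. No marker passed after adjustment, and the part of the markers in the changes between the clusters was not tested.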

How the data were processed

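Liver RNA was measured on one-colour arrays. The authors labelled and scanned the arrays, and the deposited scanner values hold signal intensity per spot (a median over pixels) and the intensity of its surroundings, neither subtracted nor scaled. Per the labels the dye was Hy5, while the signal column is named 532, the only channel used here, and which wavelength was scanned was not settled. A 28S RNA normalization named in the methods could not be seen in these values. With R 4.3.3 and limma 3.58.1, signals were corrected by normexp (offset 50), taken to log2 and shifted by each array's median over 451 probes above the blank spots (mean + 2 SD) on all 8 arrays. The test was two-sided and unpaired (lmFit, eBayes, Benjamini-Hochberg adjustment) over the 1070 probes that were above the blank spots on 4 or more arrays. Within-array differences were compared by exact permutation over arrays. The offset makes fold changes of dim probes too small. Signals with an SD are uncorrected scanner signals.

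Precision is limited by the 4 arrays per group. The sources used here do not say which animals of each group were arrayed. Probes named were the 5 members, the other probes of the clusters, for each member the 3 most like it, and the cell type markers. Members and lists were chosen with earlier results of these data known. The functions were tested on simulated data. The alternatives were other normalizations, background corrections and filters, the methods' t-test, the deposited value table, another variance model, the replicate block and leaving out each array.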

Additional observations from a re-analysis of the deposited data

Results flagged for a closer look

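In 2 of 32 groups of 4 arrays checked, a single array stood apart from the rest, measured as its gap to the nearest array over the range of the group and judged by Dixon's 95% critical value. Chance flags about 1 in 20 such groups. For mmu-miR-23a* in MCD + metformin livers the value was 0.837, with normalized log2 values of 6.96, 6.53, 6.94 and 7.02, liver 2 being low. For mmu-miR-27a* in MCD livers it was 0.847, with 6.90, 6.90, 6.78 and 6.92, liver 3 being low. Both probes were under the negative control threshold on every array.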

How the results depend on the processing

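The change of mmu-miR-27a minus mmu-miR-27b stayed between -0.36 and -0.26 over 18 alternatives, and between -0.35 and -0.27 when each array was left out. Among the 18, settings that only shift whole arrays, and the replicate block, could not move this change. With the replicate block it was -0.32 with an exact permutation p of 0.125, the smallest possible there. Same-numbered livers deviated from their group means with correlations of 0.02, 0.03, -0.30 and -0.14. Whether the numbers pair the samples was not tested. The log2 fold changes of mmu-miR-27a and mmu-miR-24 kept their sign in all 23 alternatives each. Among the 23, the filters applied without a new shift, the t-test, the other variance model and the block leave a fold change as it is. Their sign was therefore fixed in advance. An added setting, chosen after seeing the data, shifted by and tested only probes above negative controls, which lowered the log2 fold changes by 0.12. There the unadjusted limma p of mmu-miR-27a and mmu-miR-24 was 0.0247 and 0.0275 (adjusted 0.361). The fold change of mmu-miR-27b was -0.019 under quantile normalization, -0.028 with the local background subtracted and -0.014 in the added setting. That of mmu-miR-23a was 0.0049 with a normexp offset of 0. Without 1 array, the ranges were -0.32 to -0.12 for mmu-miR-27a, -0.36 to -0.087 for mmu-miR-24, 0.0021 to 0.20 for mmu-miR-27b, -0.16 to 0.066 for mmu-miR-23a, -0.18 to 0.088 for mmu-miR-23b (positive without MCD + metformin liver 3 or MCD liver 3), and -0.12 to 0.13 for mmu-miR-23a minus mmu-miR-23b (negative without either of the same livers). The cause was not tested. The 101 probes at an unadjusted p under 0.05 became 56 with detection on all arrays, 34 with the negative control filter, both of which tested fewer probes, 14 in the added setting, which changed the shift and the probes tested together, and 81 to 104 without 1 array. The block gave 87. The split was 68 higher and 33 lower, against 43 and 50 under quantile normalization, 24 and 60 without scaling, 31 and 52 in the deposited table, and 3 and 11 in the added setting. The count past an adjusted p of 0.05 by limma, 0, was 1 in the added setting and 0 to 9 without 1 array (9 without MCD liver 4), none of them a member.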
